A study of Mus musculus with 19 samples.

Results

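The genes described here are 40 genes of the ATF4 programme and of amino acid metabolism, out of 22878 gene symbols in the RNA tables. They were taken by symbol, each with the transcript that had the most reads over all 16 RNA libraries. By role they comprise 6 transcription factors, 4 feedback and stress regulators, 6 enzymes of serine, glycine and folate metabolism, 6 other amino acid enzymes, 8 amino acid transporters and 10 tRNA synthetases. All 40 had reads. In the Bcl11b experiment 38 of them passed the filter on low values and were tested, with Pycr1 and Slc7a11 left out, and in the Gata3 experiment all 40 passed.

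RNA was sequenced from mouse T helper 2 (Th2) cultures, CD4 T cells that secrete interleukins 4, 5 and 13, after deletion of the gene of either the zinc-finger factor Bcl11b or the Th2 factor GATA3. In the Bcl11b experiment naive CD4 T cells came from Bcl11b fl/fl-CreERT2 mice, in which 4-hydroxytamoxifen activates a Cre recombinase that removes the floxed gene. All 4 Bcl11b groups carried these alleles. Early cultures had 4 days of Th2 conditions, and late cultures had 4 days, 1 day of rest in IL-2 and 4 more days. The knockout (KO) groups received 4-hydroxytamoxifen and the wild-type (WT) groups none, which means that effects of drug and deletion cannot be told apart. The Gata3 experiment had the same early and late, WT and KO groups, but the sources used here do not give its alleles or culture. Each of the 8 groups had 2 libraries, numbered 1 and 2. The labels do not say whether these came from separate mice or cultures, so p-values measure only the spread between these libraries. Binding of Bcl11b and of GATA3 was measured once each in late WT Th2 cells, beside an input control.

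ATF4 is a bZIP transcription factor whose mRNA is translated preferentially when the initiation factor eIF2alpha is phosphorylated, for example by GCN2 when amino acids run short or by PERK when proteins misfold. With C/EBP partners it binds C/EBP-ATF response elements and raises transcription of amino acid transporters, of enzymes that make serine, glycine, asparagine and proline, and of tRNA synthetases, while targets such as Trib3 and Chac1 act in feedback. Activated T cells import amino acids and make serine and one-carbon units to grow, and many of these genes are also driven by mTORC1 and Myc.

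The core of the C/EBP-ATF response element is shown first, because it is the sequence through which ATF4 acts on its targets. The genes were chosen as ATF4 and amino acid genes, several of them known for this element, so its share among them is a description and not independent evidence. RefSeq promoter windows (GRCm38.p6, 250 bases before to 50 bases after the start) were found for 32 of the 40 genes. Windows were not matched for Slc7a5, Slc38a1, Slc1a5, Cth, Eif4ebp1, Wars, Nars and Lars. The 8-base motif TGATGNAA, searched on both strands, was present in 13 of the 32 genes, against 4.51% of 27025 genes in the table. Its form TGATGCAA was present in 10 of 32, against 1.03% of genes. The GATA motifs AGATAA and TGATAA were found in 3 of the 32 genes (Atf4, Atf3 and Ddit3), against 21.0% of genes. A match is a description of the letters and not of binding. Sites in 9 of the 13 genes follow, each with 10 bases on both sides, written 5′ to 3′ along the gene with the motif, or its reverse complement, in capitals.
Atf3 (chr1:191183426-191183453, - strand): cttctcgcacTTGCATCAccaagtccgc
Trib3 (chr2:152344029-152344056, - strand): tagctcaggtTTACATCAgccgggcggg
Chac1 (chr2:119351039-119351066, + strand): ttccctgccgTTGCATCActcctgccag
Asns (chr6:7693215-7693242, - strand): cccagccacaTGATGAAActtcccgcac
Got1 (chr19:43524690-43524717, - strand): attgcattggTTGCATCAtacaagcctc
Slc7a11 (chr3:50443662-50443689, - strand): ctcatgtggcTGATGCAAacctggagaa
Slc1a4 (chr11:20332700-20332727, - strand): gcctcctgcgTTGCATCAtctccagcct
Tars (chr15:11399656-11399683, - strand): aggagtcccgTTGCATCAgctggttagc
Yars (chr4:129189896-129189923, + strand): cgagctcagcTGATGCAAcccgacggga
Other genes with a match included Pycr1, Gars and Iars. Counted to its first base, the motif lay closest to the start site in Yars, 3 bases past it, and farthest in Chac1, 193 bases before it.

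Got1 and Gpt2, a pair of aminotransferases that link glutamate to aspartate and to alanine, fell in both Gata3 KO stages as described below, and both had a peak over the start site. Their 250 bases before the start are therefore shown whole (RefSeq, GRCm38.p6, 5′ to 3′ along the gene), with the TGATGNAA match or its reverse complement in capitals.
Got1 (chr19:43524606-43524855, - strand): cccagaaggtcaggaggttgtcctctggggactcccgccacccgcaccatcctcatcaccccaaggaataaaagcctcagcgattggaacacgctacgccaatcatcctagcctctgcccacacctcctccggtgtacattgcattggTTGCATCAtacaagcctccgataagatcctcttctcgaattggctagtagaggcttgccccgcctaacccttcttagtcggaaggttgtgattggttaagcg
Gpt2 (chr8:85492326-85492575, + strand): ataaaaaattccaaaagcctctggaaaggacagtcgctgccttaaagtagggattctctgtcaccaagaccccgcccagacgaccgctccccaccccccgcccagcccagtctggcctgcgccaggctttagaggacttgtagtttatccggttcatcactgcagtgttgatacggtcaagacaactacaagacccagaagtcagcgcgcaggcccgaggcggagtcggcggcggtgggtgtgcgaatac
Got1 had a match 102 bases before its start and Gpt2 had none. A deposited GATA3 peak at chr19:43524457-43524984 (mm10, the same assembly as GRCm38) spans the whole Got1 stretch, and a Bcl11b peak at chr8:85491997-85493034 spans the whole Gpt2 stretch.

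Libraries held 4687552 to 14577958 gene reads in the Bcl11b experiment and 5117526 to 9892746 in the Gata3 experiment. The targeted genes came first as a check of the labels. Bcl11b was at 126 and 128 CPM (counts scaled by TMM to library size) in early WT against 66.5 and 54.2 in early KO, and at 140 and 181 in late WT against 75.6 and 137 in late KO. Gata3 was at 1178 and 1280 in early WT against 425 and 419 in early KO, and at 1382 and 1327 in late WT against 1090 and 954 in late KO. No KO library reached its WT group, and late Bcl11b KO library 2 lay just under late WT library 1. Both early Bcl11b WT libraries stood apart: reads over 1458 sensory receptor genes ran at 3.78 and 4.87 per kb, against 0.507 or less in the other 14 libraries, and gene reads were 20.7% and 16.9% of the library total that the RPKM values imply, against 40.7% to 60.3%. In the Gata3 experiment, early and late WT libraries of the same number were more alike than replicates (chi-square per degree of freedom 4.26 and 2.52, against 12.8 and 13.5 between the WT replicates). They differed by more than sampling noise and were kept apart, but the labels do not say whether a number marks 1 culture sampled at both stages, so late against early WT and the stage difference of Gata3 may not compare independent cultures. T cell and Th2 markers (10 of 10 detected) summed to 3544 to 14271 CPM in every library. B cell markers summed to 86.8 to 131 CPM in the early Bcl11b groups, 4.40 to 5.18 in late WT and 20.1 to 31.4 in late KO, and to at most 2.03 in the Gata3 experiment, where Ms4a1 and Pax5 were at 0.

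Per kb of transcript, Atf4 was the most abundant of the 40 genes in 6 of 8 groups, at mean levels from 119.5 CPM per kb in late Gata3 KO to 414 in early Bcl11b WT. Psat1, the phosphoserine aminotransferase of serine synthesis, led in late Bcl11b WT at 226, where Atf4 at 221 differed by less than the spread between libraries. Eif4ebp1, an inhibitor of cap-dependent translation that mTORC1 phosphorylates, led in late Gata3 KO at 180.4, and in early Gata3 WT it was level with Atf4, at 190.2 against 191. The median of the 40 genes ran from 20.8 to 42.0 CPM per kb in the 8 groups, against 3.31 to 6.53 over all genes with a read. Slc7a11 was at the bottom in early Bcl11b WT, early Bcl11b KO and late Bcl11b WT, at 0.806, 0.376 and 0.482 CPM per kb, and Trib3 in late Bcl11b KO at 0.250.

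**Figure D1:**
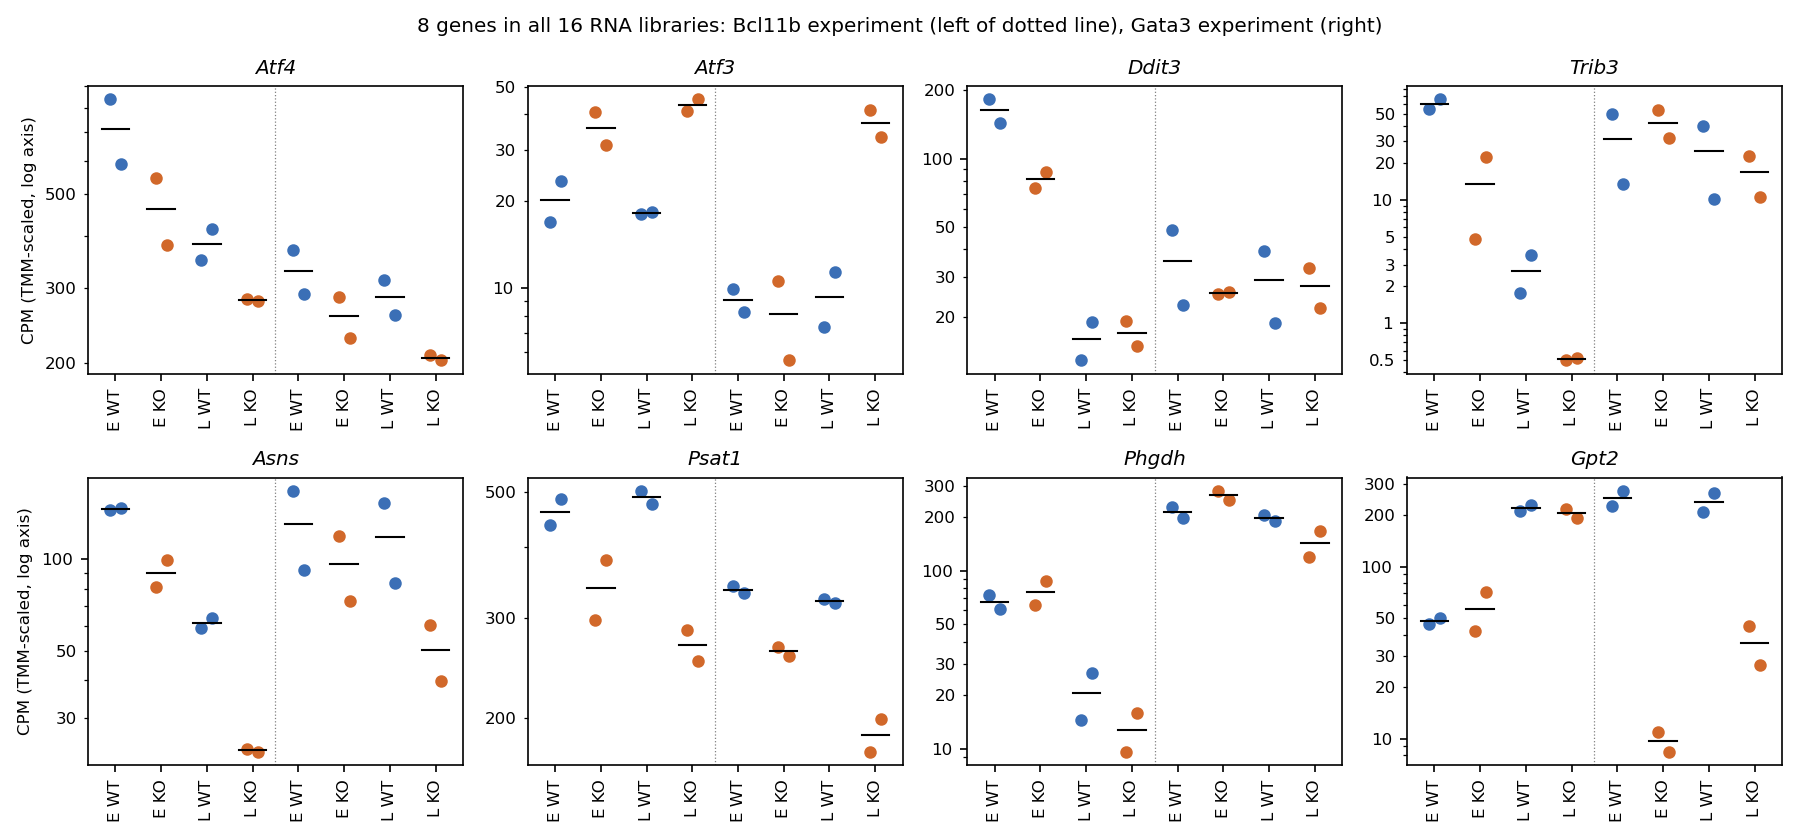
Level of 8 genes in each of the 16 RNA libraries, in TMM-scaled CPM on log axes; E is early and L is late, blue points are WT and orange points KO libraries, black bars are group means (n = 2), and the dotted line parts the Bcl11b experiment (left) from the Gata3 experiment (right). Gpt2 sits at 8.35 to 45.0 CPM in the 4 Gata3 KO libraries and at 209 to 276 in the 4 Gata3 WT libraries.

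Loss of Gata3 in early cultures went with far lower Gpt2 and lower Got1, and 4 other genes were called. At an adjusted p under 0.05, 2 genes rose and 4 fell, 6 of 40 in all, against 30.7% of 10601 genes tested (14.0% higher, 16.8% lower). The median log2 fold change was -0.12, against -0.00 over all genes (edgeR quasi-likelihood test with Benjamini-Hochberg adjustment here and below). Both KO libraries lay above both WT libraries in 8 genes, against 33.0% of genes tested, and below them in 12, against 34.1%. As in any bulk culture, fewer cells of a type and less RNA per cell cannot be told apart.

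Gpt2, the mitochondrial alanine aminotransferase, was at 224 and 276 CPM in the early Gata3 WT libraries and at 10.9 and 8.35 in the early KO libraries. The groups lay far apart, and Gpt2 fell by 4.69 on the log2 scale (SE 0.27, 25.9-fold lower, adjusted p = 1.25e-06). Got1, the cytosolic aspartate aminotransferase, was at 245 and 219 CPM in WT libraries, with 93.1 and 87.0 in KO. Both KO libraries were again below both WT libraries, and the log2 fold change was -1.36 ± 0.14 (SE, adjusted p = 4.85e-05). These calls held when any of the 8 libraries of the experiment was left out. Cth, which makes cysteine from cystathionine, was low throughout, at 5.15 and 2.25 CPM in WT and 1.19 and 0.687 in KO, and fell (log2 fold change -1.95 ± 0.56, adjusted p = 0.0245) on 56 reads in WT and 17 in KO. Psat1 was at 343 and 332 CPM in WT and 267 and 257 in KO, a small fall without overlap (-0.36 ± 0.11, adjusted p = 0.0272).

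The genes that rose in early Gata3 KO were Cebpb and Wars. Cebpb, a C/EBP partner of ATF4, was at 16.5 and 15.7 CPM in WT and 30.4 and 26.7 in KO (log2 fold change 0.83 ± 0.19, adjusted p = 0.00767). Wars, the tryptophanyl-tRNA synthetase, was at 123 and 121 CPM in WT and 170 and 159 in KO (0.43 ± 0.14, adjusted p = 0.0457). Neither gene had overlapping groups. The smaller calls depended on single libraries: Cebpb was not called without early KO library 1 (adjusted p up to 0.0638), Psat1 without any of the 4 early libraries (up to 0.167), Cth without WT library 1 or either KO library (up to 0.201), and Wars without any early library or either late WT library (up to 0.203). In place of 6 genes, 2 were called without early KO library 1 and 3 without early WT library 1 or early KO library 2. The 2 NK cell markers summed to 41.2 to 45.7 CPM in early KO and to at most 0.136 in early WT. Ncr1 was at 0 in both groups, so these sums are Klrb1c alone. CD8 T cell markers summed to 31.0 to 39.0 and 8.39 to 11.5, and of 10 T cell and Th2 markers 6 fell and 1 rose. The part of these lists in the results was not tested.

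Atf4, Asns, Trib3, Ddit3, Chac1, Phgdh and Slc7a11 were not called in early Gata3 KO, in a fit without a replicate block. With a block by library number, 13 of the 40 genes were called (4 higher, 9 lower) in place of 6. Atf4 was at 370 and 291 CPM in WT and 286 and 230 in KO, below WT in both libraries (log2 fold change -0.36 ± 0.16, adjusted p = 0.117). Asns, the asparagine synthetase, ranged from 92.3 to 168 CPM in WT and from 73.0 to 119 in KO, and Trib3, a pseudokinase that restrains ATF4, from 13.5 to 49.6 in WT and 31.7 to 53.5 in KO. These ranges overlapped, as did those of Ddit3, the pro-apoptotic factor CHOP (22.5 to 48.5 and 25.3 to 25.7), and of Chac1, a glutathione-degrading enzyme (6.14 to 21.4 and 9.15 to 12.6). Phgdh, the first enzyme of serine synthesis, was higher in both KO libraries, at 282 and 250 CPM against 228 and 199, and Slc7a11 was at 45.6 and 37.4 against 44.5 and 56.6; neither was called.

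In late Gata3 KO cultures Gpt2 was lower again, Atf3 and Cebpb were higher, and Psat1, Got1, Shmt2, Slc38a1 and 4 tRNA synthetases were lower by smaller amounts. Of the 40 genes 2 rose and 9 fell, against 8.44% of genes tested that rose and 5.59% that fell (14.0% called). The median log2 fold change was -0.39, against 0.00 over all genes. In 24 genes both KO libraries were below both WT libraries, against 25.6% of genes tested, and in 2 they were above, against 28.5%.

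Gpt2 was at 209 and 266 CPM in late WT and 45.0 and 26.9 in late KO, and fell by 2.75 on the log2 scale (SE 0.24, 6.74-fold lower, adjusted p = 8.44e-05). Atf3, a stress-induced repressor of the ATF family, was at 7.33 and 11.4 CPM in WT and 41.5 and 33.4 in KO. It rose by 1.99 on the log2 scale (SE 0.30, 3.98-fold, adjusted p = 0.00188), with a wide gap between the groups. Cebpb was at 11.4 and 10.2 CPM in WT and 24.3 and 33.0 in KO, higher in both KO libraries (1.42 ± 0.19, adjusted p = 0.0011). Psat1 was at 324 and 320 CPM in WT and 175 and 200 in KO, and fell (-0.78 ± 0.11, adjusted p = 0.00119). The calls of Gpt2, Atf3, Cebpb and Psat1 held with any library left out, and Cebpb alone of the 4 was not called in a fit of all 16 libraries (adjusted p = 0.0549).

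The remaining 7 falls in late Gata3 KO were of 0.44 to 0.62 on the log2 scale. Got1 was at 249 and 204 CPM in WT and 166 and 140 in KO, still below WT in both libraries (log2 fold change -0.57 ± 0.14, adjusted p = 0.0212). Shmt2, the mitochondrial serine hydroxymethyltransferase that turns serine into glycine, was at 235 and 201 CPM in WT and 126 and 157 in KO (-0.62 ± 0.16). Slc38a1, a glutamine transporter, was at 215 and 228 CPM in WT and 152 and 165 in KO (-0.48 ± 0.11). All 3 genes had both KO libraries below both WT libraries. Of 10 tRNA synthetases 4 fell: Aars (265 and 229 CPM in WT, 157 and 178 in KO), Tars (181 and 155, 112 and 123), Lars (129 and 131, 97.3 and 94.5) and Yars (166 and 144, 103 and 112), the enzymes for alanine, threonine, leucine and tyrosine. The 10 synthetases all had negative values, from -0.56 to -0.18, and 8 of them had KO below WT without overlap. Each of these 7 calls was lost without at least 2 single libraries, late WT library 1 among them in every case. Without it 4 of the 40 genes were called in place of 11, and without late KO library 1, 6.

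The genes not called in late Gata3 KO included Asns at 152 and 83.5 CPM in WT and 60.7 and 39.7 in KO (log2 fold change -1.25 ± 0.37, adjusted p = 0.0537) and Atf4 at 314 and 260 in WT and 209 and 203 in KO (-0.48 ± 0.16, adjusted p = 0.0772). Both had KO below WT in every library. Phgdh was at 205 and 189 in WT and 120 and 167 in KO, also without overlap. Trib3 (39.98 and 10.3, 22.9 and 10.6), Ddit3 (39.2 and 18.9, 33.1 and 22.0), Chac1 (13 and 5.36, 6.07 and 1.72) and Slc7a11 (44.4 and 48.5, 37.4 and 45.6) had overlapping groups. The fit had no replicate block. With a block by library number, 21 of the 40 genes were called in late KO (2 higher, 19 lower) in place of 11.

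The Gata3 effect differed between stages for 5 of the 40 genes, by a test of the difference itself (3 in the positive and 2 in the negative direction, against 7.74% and 4.47% of genes tested, 12.2% in all). Gata3 RNA itself was lower by a wider margin early (425 and 419 CPM in KO against 1178 and 1280 in WT) than late (1090 and 954 against 1382 and 1327); the part of this in the differences was not tested. For Gpt2 the late effect was smaller in size by 1.94 ± 0.35 on the log2 scale (adjusted p = 0.00603), as late KO libraries held more Gpt2 than early KO libraries. For Got1 the difference was 0.79 ± 0.19 (adjusted p = 0.0254). The difference for Atf3 was 2.15 ± 0.44 (adjusted p = 0.0117), since early KO, at 10.6 and 5.61 CPM, overlapped early WT, at 9.90 and 8.27. Mthfd2, a mitochondrial one-carbon enzyme, and Slc38a2, a neutral amino acid transporter, had differences of -0.72 ± 0.19 (adjusted p = 0.0387) and -0.56 ± 0.14 (adjusted p = 0.03). Mthfd2 was at 231 and 194 CPM in early WT, 287 and 251 in early KO, 228 and 189 in late WT and 166 and 155 in late KO. Slc38a2 was at 145 and 155, 175 and 184, 160 and 154, and 126 and 128 in the same order. Both genes were above WT in both early KO libraries and below WT in both late KO libraries. Calls for Gpt2 and Atf3 held without any single library, while those of Mthfd2, Slc38a2 and Got1 were lost without 6, 7 and 5 of the 8 libraries in turn (adjusted p up to 0.146, 0.116 and 0.117). In place of 5 genes, 9 were called without late KO library 2, 3 without early WT library 1 or either late WT library, and 2 without either early KO library or late KO library 1.

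**Figure D2:**
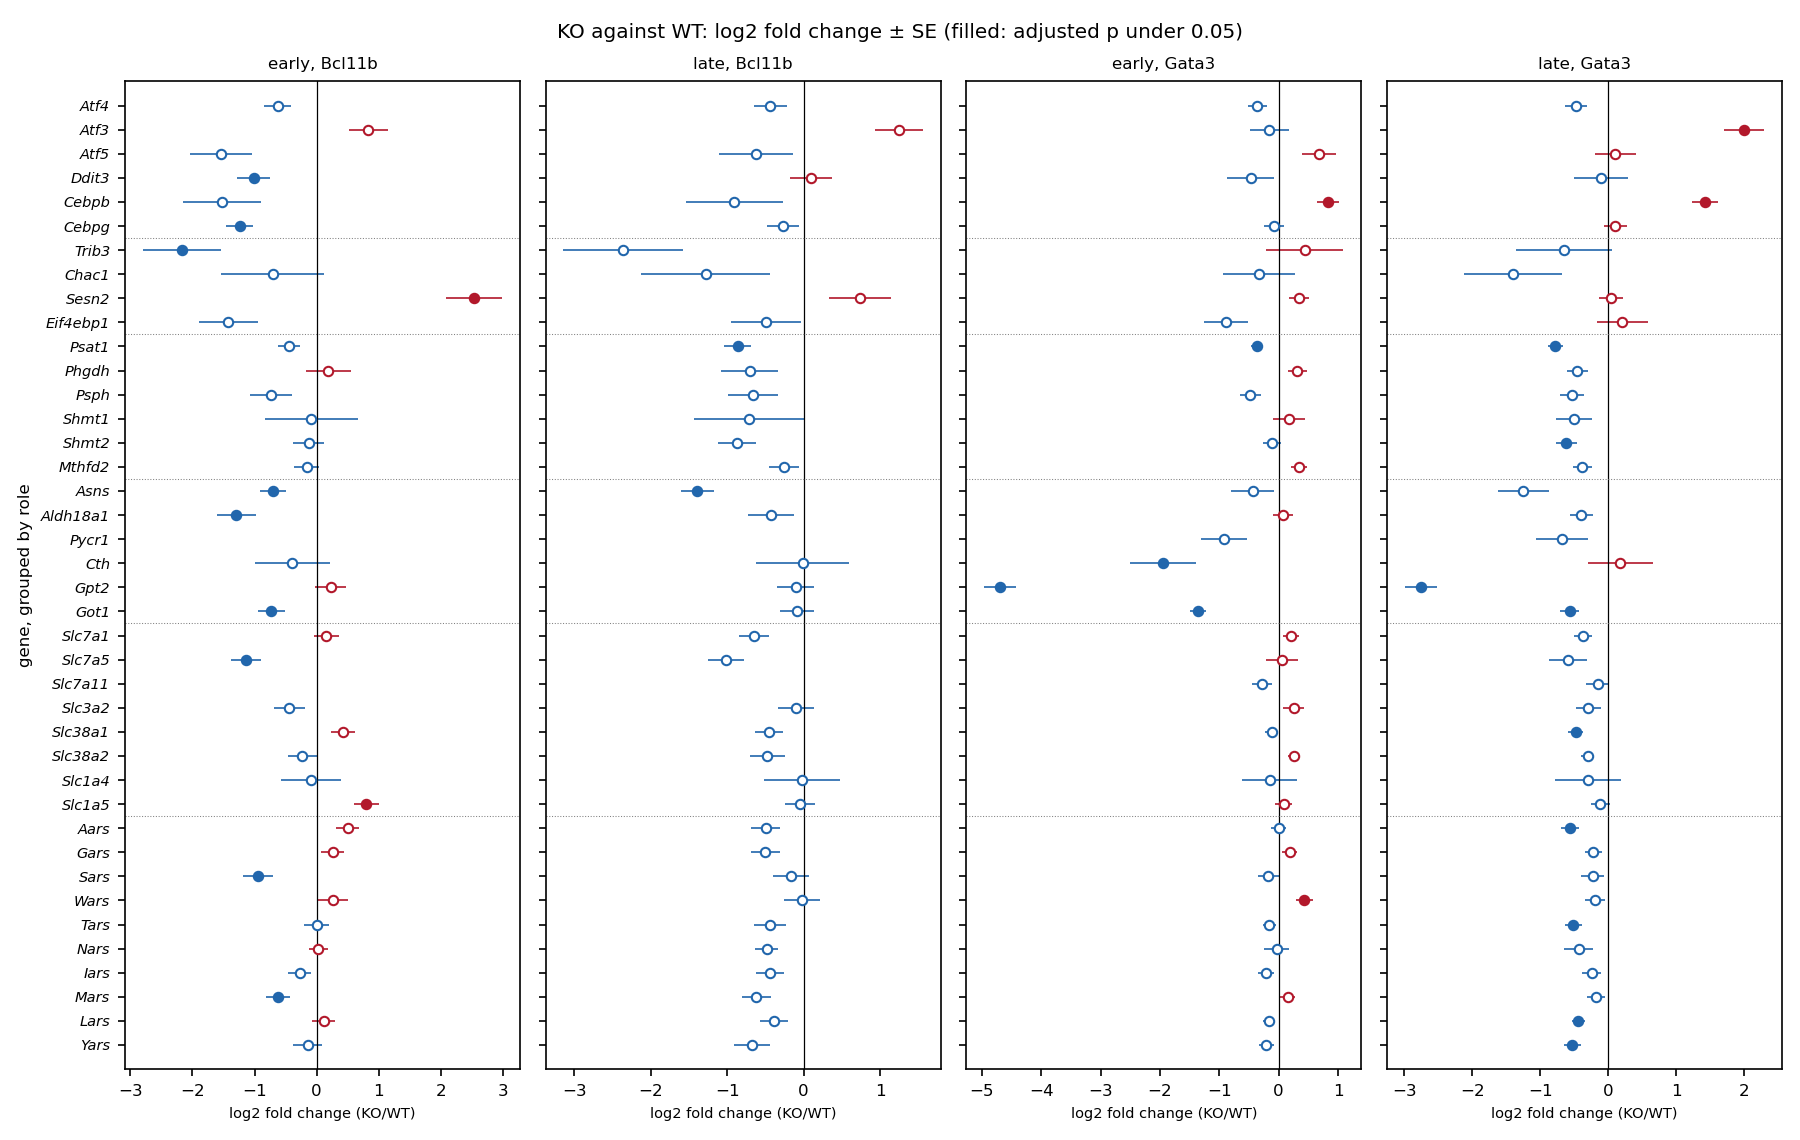
Log2 fold change of KO against WT for each tested gene in the 4 comparisons, with bars of 1 standard error; filled points passed an adjusted p under 0.05, red is higher in KO, blue lower, and dotted lines part the 6 roles. In the late comparisons most points lie left of 0, 35 of 38 for Bcl11b and 33 of 40 for Gata3, although 2 and 11 genes were called; the horizontal scales differ.

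Early Bcl11b KO cultures differed from their WT in both directions, with Cebpg, Slc7a5 and Aldh18a1 lower and Sesn2 higher. Of 38 genes tested 2 rose and 9 fell, against 11.0% and 10.1% of 10873 genes tested (21.1% called). The share that fell was above and the share that rose below that of all genes. This is a description only, as the genes were chosen with earlier results of these data known. The median log2 fold change was -0.25, against 0.03 over all genes. Both KO libraries were above both WT libraries in 8 genes, against 28.8% of genes tested, and below them in 16, against 25.1%. The WT libraries of this comparison are those with the high sensory receptor reads, and the part of these reads in the results was tested only by subtraction of that read rate, which gave 13 calls (2 higher, 11 lower). On the authors' RPKM values, with limma on log2(RPKM + 1), 22 genes were higher and none lower. That setting put the median of all genes at 0.86 here, at 1.04 in late against early WT, at -1.04 in the stage difference, at -0.16 in late KO against WT and at 0.11 in late against early KO, so directions in the Bcl11b experiment are relative to the TMM scale of gene reads. In place of 11 genes, 7 were called without early WT library 2 or either late KO library.

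Among the transcription factors, Cebpg, which pairs with ATF4 on C/EBP-ATF elements, was at 128 and 101 CPM in early WT and 49.0 and 47.8 in early KO (log2 fold change -1.24 ± 0.22, adjusted p = 0.00364). Ddit3 was at 183 and 144 CPM in WT and 74.3 and 87.8 in KO (-1.02 ± 0.27, adjusted p = 0.0237). Both fell without overlap, and on log2(RPKM + 1) Ddit3 turned to 0.13. Atf4 was at 839 and 589 CPM in WT and 545 and 380 in KO, lower in both KO libraries without passing the test (-0.63 ± 0.22, adjusted p = 0.0682). Chac1 (5.24 and 21.8 in WT, 13.9 and 2.65 in KO) had overlapping groups.

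Sesn2, a leucine sensor that restrains mTORC1, was at 7.12 and 4.82 CPM in WT and 48.7 and 20.5 in KO. It rose by 2.53 on the log2 scale (SE 0.45, 5.79-fold, adjusted p = 0.00397), and the rise held with any library left out and under every other setting tried. Trib3 was at 55.1 and 66.0 CPM in WT and 4.80 and 22.2 in KO, with a log2 fold change of -2.17 ± 0.63 (adjusted p = 0.0345). The KO libraries differed from each other by more than the WT libraries did, and the call was lost without any of WT library 1, WT library 2, KO library 1 or either late KO library (adjusted p up to 0.0738).

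Of the enzymes, Aldh18a1, which starts proline synthesis, was at 70.6 and 130 CPM in WT and 36.0 and 45.7 in KO (log2 fold change -1.29 ± 0.31, adjusted p = 0.0162). Asns was at 145 and 148 CPM in WT and 80.9 and 98.9 in KO (-0.70 ± 0.21, adjusted p = 0.039), and Got1 at 120 and 171 in WT and 98.6 and 77.1 in KO (-0.73 ± 0.22, adjusted p = 0.0415). All 3 were lower in both KO libraries. Serine enzymes showed no call: Psat1 was at 438 and 487 CPM in WT and 299 and 380 in KO (-0.45 ± 0.17, adjusted p = 0.0917), and Phgdh at 73.1 and 61.2 against 64.5 and 88.1. Gpt2 overlapped between the groups, at 46.1 and 50.1 in WT and 42.0 and 70.7 in KO.

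Of 7 transporters tested 1 rose and 1 fell, with a median of -0.09. Slc7a5, the large neutral amino acid transporter that carries leucine, was at 86.7 and 94.3 CPM in WT and 45.6 and 36.8 in KO, and fell (log2 fold change -1.14 ± 0.24, adjusted p = 0.00828). Slc1a5, which imports glutamine, was at 126 and 109 CPM in WT and 185 and 224 in KO, and rose (0.80 ± 0.20, adjusted p = 0.0189). Among tRNA synthetases Sars (123 and 162 in WT, 78.3 and 69.7 in KO, -0.94 ± 0.24) and Mars (184 and 228, 133 and 135, -0.62 ± 0.19) fell. The calls of Asns and Mars were lost without 7 of the 8 libraries in turn, that of Got1 without 6, and those of Ddit3, Aldh18a1, Slc1a5 and Sars without 2 (WT library 2 for the last 3 and WT library 1 for Ddit3, each with a KO library). Slc7a5, Cebpg and Sesn2 kept theirs without any single library. On log2(RPKM + 1), Asns turned to 0.41, Slc7a5 to 0.0041, Got1 to 0.40, Sars to 0.19 and Mars to 0.50, and Cebpg and Aldh18a1 were not called (adjusted p = 0.81 and 0.803 by limma). Proliferation genes fell in the same comparison, 7 of 12 with a list median of -0.99. Mast cell and basophil markers summed to 42.9 to 45.3 CPM in early KO and 3.77 to 11.3 in early WT. Of these 4 markers Mcpt8 was at 0 in both groups and Fcer1a at 0 in KO alone, and 1 was tested. CD8 T cell markers summed to 83.2 to 99.3 and 42.3 to 42.9, and erythroid cell and neutrophil markers to 10.8 to 12.8 and 4.19 to 5.45. In each of these lists 1 gene was called higher. Of 10 T cell and Th2 markers 4 rose and none fell. The part of these lists in the result was not tested.

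Late Bcl11b KO cultures had lower Asns and Psat1, and 35 of 38 genes had negative values. None of the 38 rose and 2 fell, against 1.69% and 0.524% of genes tested (2.22% called). The median log2 fold change was -0.46, against -0.02 over all genes. Both KO libraries were below both WT libraries in 25 genes, against 27.5% of genes tested, and above them in 2, against 26.7%.

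Asns was at 59.5 and 63.9 CPM in late WT and 23.7 and 23.2 in late KO. The groups were tight and far apart, and Asns fell by 1.39 on the log2 scale (SE 0.22, 2.63-fold lower, adjusted p = 0.00995). Psat1 was at 504 and 477 CPM in WT and 287 and 252 in KO (-0.86 ± 0.17, 1.82-fold lower, adjusted p = 0.0313). Both calls were lost without any of the 4 late libraries (adjusted p up to 0.147 and 0.325), when no gene of the 38 was called. In fits without any single early library, or without both early WT libraries, 4 genes were called, and in a fit of only these 4 libraries 15 (2 higher, 13 lower).

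Several genes outside the call were lower too, and those with falls of similar or larger size included Trib3, Slc7a5 and Shmt2. Trib3 was at 1.75 and 3.61 CPM in WT and 0.50 and 0.527 in KO, on 75 and 12 reads (log2 fold change -2.36 ± 0.79, adjusted p = 0.191). Slc7a5 was at 112 and 155 CPM in WT and 64.8 and 67.5 in KO (-1.01 ± 0.23, adjusted p = 0.0546). Shmt2 was at 158 and 207 in WT and 93.1 and 106 in KO (-0.87 ± 0.25, adjusted p = 0.114), and Atf4 at 349 and 413 in WT and 283 and 281 in KO. All 4 had KO below WT in every library. Atf3 went the other way, at 18.1 and 18.3 CPM in WT and 41.2 and 45.2 in KO (1.25 ± 0.31, adjusted p = 0.0749). Of 6 serine, glycine and folate enzymes 5 were lower without overlap, and of 10 tRNA synthetases 8. Chac1 was at 6.09 and 6.78 in WT and 2.36 and 2.95 in KO, Phgdh at 14.4 and 26.8 against 9.58 and 15.8, and Ddit3 at 12.9 and 19.1 against 19.1 and 14.9. Slc7a11, under the filter, was at 4.06 and 4.83 in WT and 9.86 and 14.3 in KO, with no test. Proliferation genes fell here too, 7 of 12 with a median of -1.08. Macrophage and dendritic cell markers summed to 53.0 to 55.1 CPM in KO against 15.2 to 17.2 in WT. Of 10 T cell and Th2 markers 2 rose and none fell. The part of these lists, and of the B cell markers above, was not tested.

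No gene of the 38 had a Bcl11b effect that differed between stages (edgeR, 0 called against 3.24% of genes tested, 1.95% positive and 1.29% negative; 11 at an unadjusted p under 0.05; DESeq2 called 3; limma on log2(RPKM + 1) called 24, all negative). The smallest adjusted p was that of Aars (difference -0.99 ± 0.27, adjusted p = 0.0763), which was at 214 and 196 CPM in early WT, 273 and 306 in early KO, 129 and 160 in late WT and 92.9 and 112 in late KO. Aars was named here after its values were seen.

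In the Bcl11b experiment more genes were called between late and early cultures than between KO and WT. In WT 5 of 38 genes rose and 12 fell (19.7% and 22.0% of genes tested, 41.7% called), and in KO 6 rose and 14 fell (17.0% and 19.6%, 36.6% called). The median log2 fold changes were -0.36 and -0.41, against -0.01 and -0.00 over all genes. The stages did not overlap, with late higher in 11 genes and lower in 18 in WT (36.7% and 35.5% of genes tested) and in 10 and 21 in KO (36.8% and 35.4%). Comparisons within an experiment share libraries. Ddit3 fell from 183 and 144 CPM to 12.9 and 19.1 in WT, a 10.3-fold difference (log2 fold change -3.36 ± 0.29, adjusted p = 1.6e-05), and from 74.3 and 87.8 to 19.1 and 14.9 in KO (-2.25 ± 0.28, adjusted p = 0.000222). Trib3 fell 22.5-fold in WT (-4.49 ± 0.70, adjusted p = 0.000691) and 25.7-fold in KO (-4.68 ± 0.79, adjusted p = 0.00127). Neither Ddit3 nor Trib3 had overlapping stages, and all 4 calls held without any single library. Atf4 fell in both genotypes (-0.91 ± 0.22 and -0.71 ± 0.22), and its calls were lost without library 1 of early or late WT (adjusted p up to 0.066) and without early KO library 1 or either late KO library (up to 0.238). Of 10 T cell and Th2 markers 7 rose with stage and 1 fell in each genotype. B cell markers fell, 3 of 3 tested in WT and 2 in KO, and CD8 T cell markers fell, 1 of 2 in WT and 2 in KO. Of 5 macrophage and dendritic cell markers tested 3 fell in WT, while 1 rose in KO. The 1 mast cell and basophil marker tested fell in both genotypes. Of 2 erythroid cell and neutrophil markers tested, 2 fell in WT and 1 in KO. The part of these lists in the result was not tested.

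Other genes rose with stage. Gpt2 went from 46.1 and 50.1 CPM to 209 and 229 in WT (log2 fold change 2.19 ± 0.25, adjusted p = 0.00011) and from 42.0 and 70.7 to 215 and 193 in KO (1.85 ± 0.25, adjusted p = 0.000322). Psph, the last enzyme of serine synthesis, rose in both genotypes (1.35 ± 0.34 and 1.42 ± 0.34), whereas Phgdh, the first, fell in both (-1.70 ± 0.37 and -2.59 ± 0.39). Phgdh was at 73.1 and 61.2 CPM in early WT and 14.4 and 26.8 in late WT. Slc38a2 rose in both (0.97 ± 0.24 and 0.72 ± 0.23), and Asns fell in both (-1.24 ± 0.21 and -1.94 ± 0.22). Sesn2 rose in WT alone by the test (2.23 ± 0.45), and the difference between genotypes was not called (adjusted p = 0.135). In KO 6 of 10 tRNA synthetases fell, led by Aars (-1.50 ± 0.19) and Gars (-1.32 ± 0.19), and in WT 4. On log2(RPKM + 1) the WT calls were 26 higher and 2 lower, and Atf4 turned to 0.57, Atf5 to 0.041, Asns to 0.21, Gars to 0.89, Iars to 0.82, Mars to 0.31 and Yars to 0.64. The call of Slc38a2 in KO was lost without early KO library 1 or either late KO library (adjusted p up to 0.173). The call of Phgdh in WT, and that of Psph in both genotypes, was lost without late library 1 of the genotype (adjusted p up to 0.0514, 0.08 and 0.0681); without late WT library 1, 8 genes were called in WT, and without late KO library 1 or 2, 11 or 13 in KO.

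In the Gata3 experiment no gene differed between late and early WT (edgeR, 0 of 40 and 0 of 10601, 0.00% called; 1 of the 40 at an unadjusted p under 0.05; DESeq2 called 0 of both). As same-numbered early and late WT libraries were closer than replicates, this count does not show that WT cells kept the same levels. Late libraries were both above early ones in 1 gene (13.4% of genes tested) and below in 4 (11.6%). Late and early KO differed in 18 genes, 4 higher and 14 lower, against 14.3% and 10.3% of genes tested (24.5% called). Both late KO libraries were above both early KO libraries in 5 genes (32.6%) and below them in 26 (31.1%). NK cell markers summed to 41.2 to 45.7 CPM in early KO and 0.101 to 0.391 in late KO (Ncr1 at 0 in both), and CD8 T cell markers to 31.0 to 39.0 and 19.9 to 24.7. In the same comparison 7 of 10 T cell and Th2 markers rose and 5 of 12 proliferation genes fell; their part in the result was not tested. Gpt2 rose (log2 fold change 1.86 ± 0.27, adjusted p = 0.000914), as did Atf3 (2.19 ± 0.30), Got1 (0.76 ± 0.14) and Cth (1.96 ± 0.56). Among the falls were Phgdh, from 282 and 250 CPM to 120 and 167 (-0.89 ± 0.16), Mthfd2 (-0.75 ± 0.14), Slc7a1, an arginine transporter (-0.73 ± 0.13), and Slc7a5 (-1.08 ± 0.28). Serine, glycine and folate enzymes gave 4 of the 14 falls, transporters 4 and tRNA synthetases 5. Without early KO library 1 the count was 7 and without late KO library 1 it was 9; of the genes just named, Cth was lost without early KO library 1 or 2 or late KO library 1, and Slc7a5 without early KO library 1 or either late KO library.

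**Figure D3:**
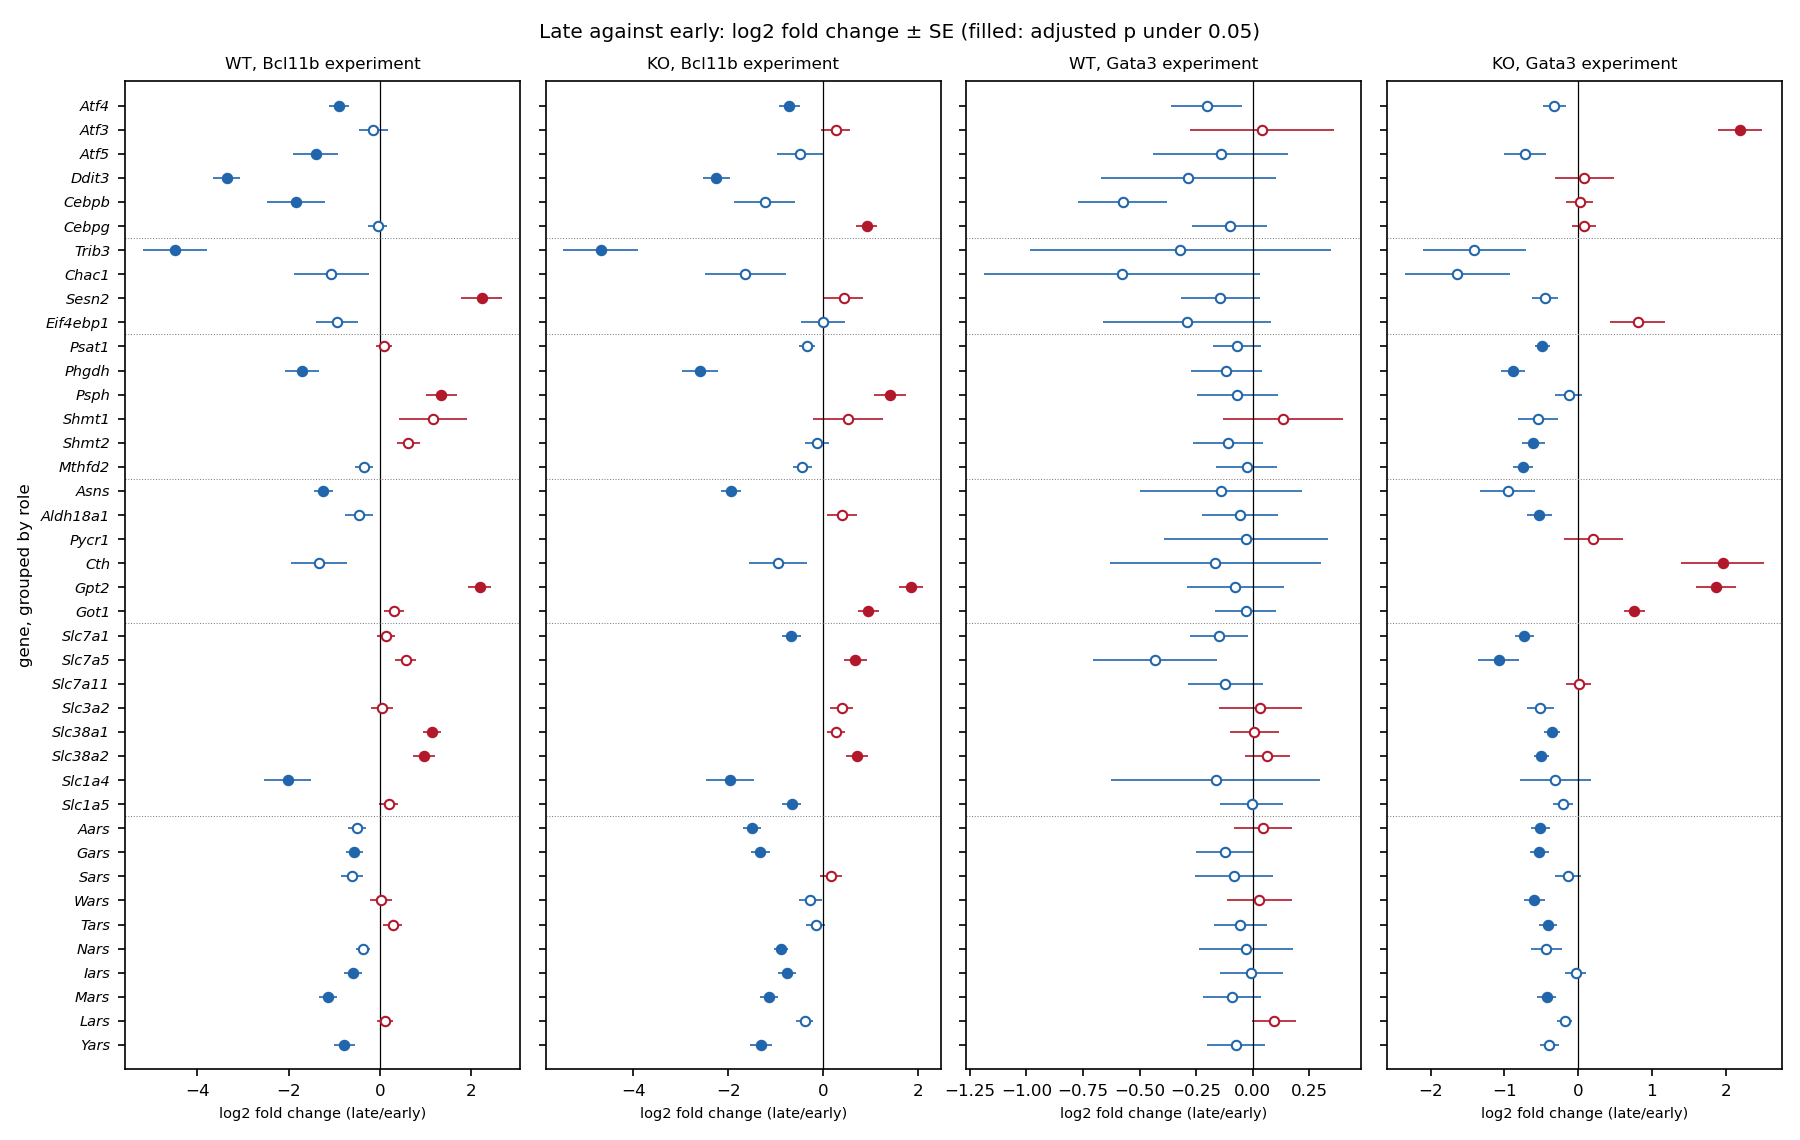
Log2 fold change of late against early cultures for each tested gene in WT and KO of both experiments, with bars of 1 standard error; filled points passed an adjusted p under 0.05, red is higher in late, blue lower. WT of the Gata3 experiment has no filled point, and Ddit3 and Trib3 lie far left in both genotypes of the Bcl11b experiment; the horizontal scales differ.

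Library 1 was above library 2 in all 4 groups of the Gata3 experiment for 15 of 40 genes, among them several ATF4 targets, against 14.5% of genes tested, and below it for 1, Shmt1, against 14.3%. The 15 were Atf4, Trib3, Chac1, Eif4ebp1, Asns, Psph, Mthfd2, Pycr1, Cth, Got1, Slc3a2, Slc1a4, Sars, Nars and Iars. For Trib3 the ratio of library 1 to library 2 was 3.67 in early WT, 1.69 in early KO, 3.89 in late WT and 2.15 in late KO, and for Asns 1.82, 1.63, 1.82 and 1.53. Chac1 had ratios of 3.49, 1.37, 2.42 and 3.52. The early and late WT ratios are not independent, given how alike these libraries were. In the Bcl11b experiment 1 of 38 genes was higher and 5 were lower in library 1 of every group, against 7.32% and 6.67% of genes tested. These spreads enter the standard errors above: that of Asns was 0.37 in late Gata3 KO against WT and 0.22 in late Bcl11b KO against WT. What the numbers 1 and 2 share is not stated in the labels.

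**Figure D4:**
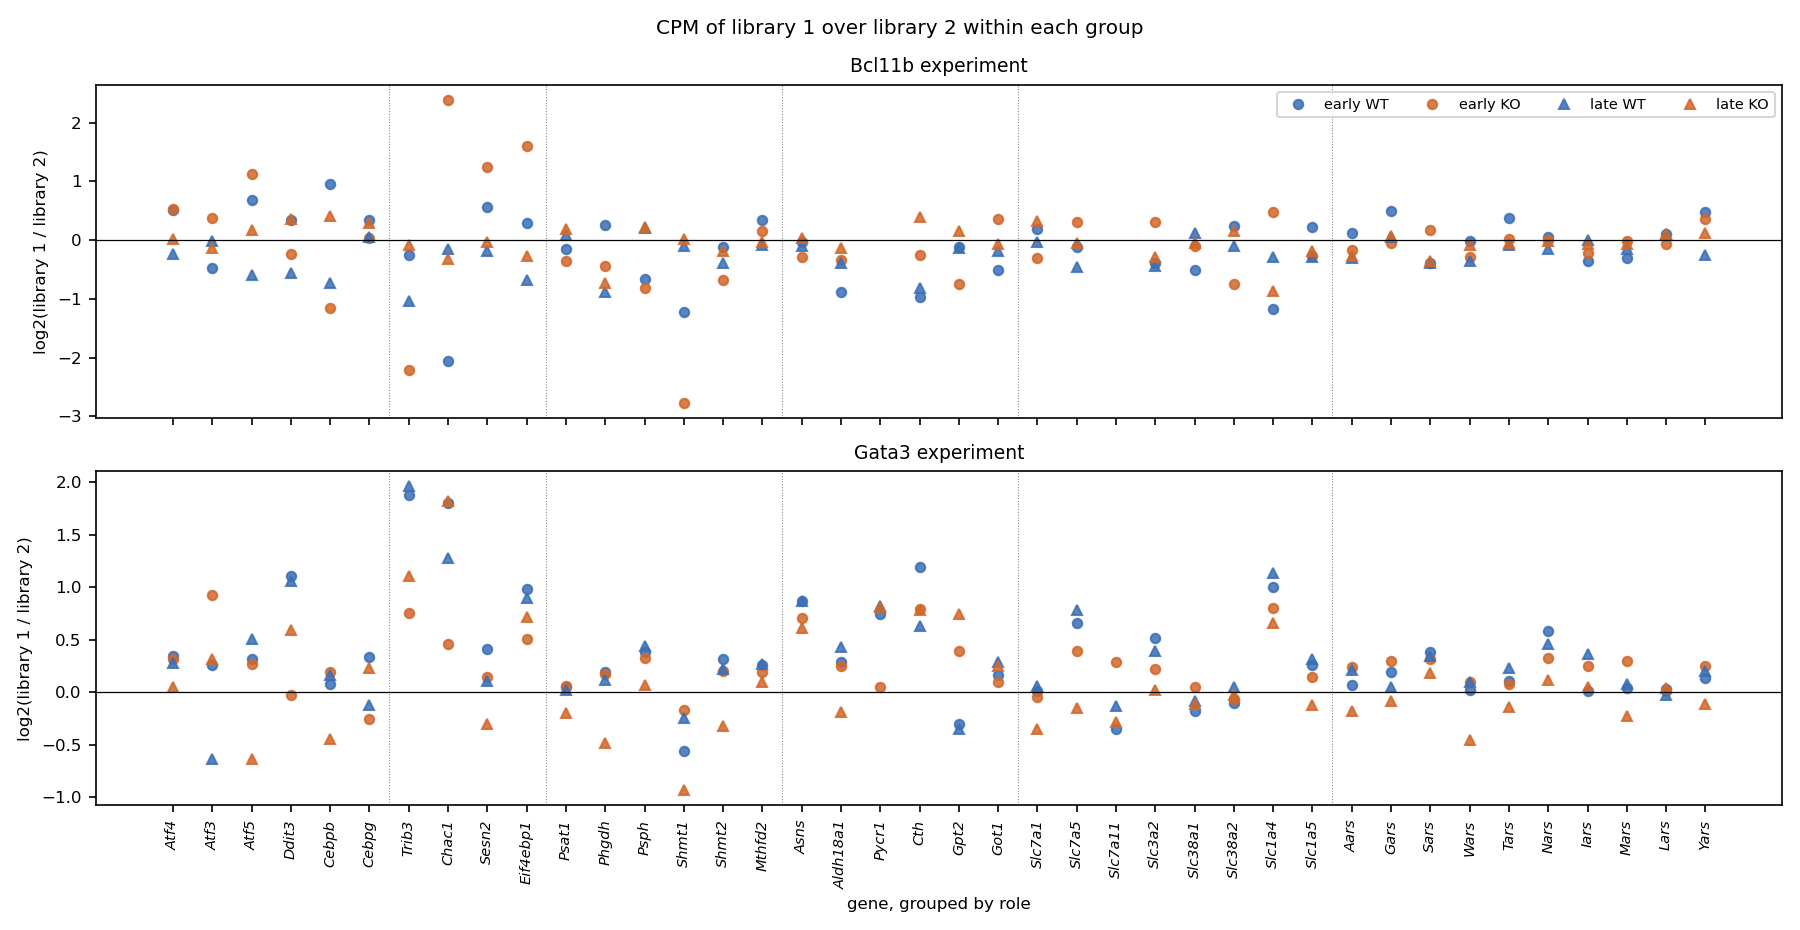
Log2 ratio of CPM in library 1 to library 2 within each group for every tested gene, with the Bcl11b experiment above and the Gata3 experiment below; circles are early, triangles late, blue WT and orange KO, and dotted lines part the roles. In the Gata3 panel all 4 points of Trib3, Chac1, Asns and Slc1a4 lie above 0.

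Binding was compared with the same genes. Each antibody had 1 library, so there is no test, and peaks that overlap an input peak were left out. A Bcl11b peak was assigned to 20 of the 40 genes, against 49.1% of 11488 genes tested, and lay within 1000 bases of the start in 16, against 30.0%. A GATA3 peak was assigned to 22, against 52.8%, and lay within 1000 bases of the start in 10, against 15.9%. Both were assigned to 14 genes (36.3% of genes tested), Bcl11b alone to 6 (12.9%), GATA3 alone to 8 (16.5%) and neither to 12 (34.3%). The counts of genes with any assigned peak, and of both, alone or neither, were near the shares of all genes. Those within 1000 bases of the start lay above the shares, without a test. Asns and Psat1, the genes that fell in late Bcl11b KO, had neither, and the same held for Atf4 and for 6 of 10 tRNA synthetases. Of these, Atf4 had a Bcl11b peak and Psat1 a GATA3 peak near the start, each left out for overlap with input, Mars had both left out, and Yars had a Bcl11b peak at 0.32 kb left out. Among the genes called in early Bcl11b KO, Trib3, Sesn2, Aldh18a1, Cebpg and Got1 had a Bcl11b peak within 1000 bases of the start. Slc7a5 had one at 14.85 kb, while Asns, Slc1a5 and Sars had none. Ddit3, like Mars, had a Bcl11b peak near the start that was left out for overlap with input.

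Of the genes called in both Gata3 KO stages, Gpt2 and Got1 had GATA3 peaks clear of input, and Cebpb and Psat1 had none. Got1 had a GATA3 peak 0.12 kb before the start, with the authors' score (-10 log10 p) of 1717 and fold enrichment of 8.30, above 97.4% of GATA3 peaks by score, and another at chr19:43521968-43522698, 2.27 kb inside the gene (score 1395.5, fold enrichment 10.8). Gpt2 had weaker GATA3 peaks 15.98 kb upstream (chr8:85476416-85476849, score 109) and 7.86 and 17.5 kb inside the gene (scores 192 and 270.0), and a Bcl11b peak at the start (score 140.0). Atf3 had a GATA3 peak 10.62 kb upstream at chr1:191193311-191194598 (score 3100, fold enrichment 17.9), above 99.4% of GATA3 peaks by score, and a Bcl11b peak of score 373 over its start. Slc7a1 had a GATA3 peak of score 1414 at 0.67 kb, and its difference was not called in early or late KO. Cebpb, higher in both Gata3 KO stages, had no GATA3 peak and a Bcl11b peak of score 795 at 0.45 kb past the start. Wars had a Bcl11b peak at chr12:108893073-108894830 (score 1104.5, fold enrichment 10.1), and its Bcl11b differences were not called. Peaks were measured in late WT cells only and are set beside the RNA without a link between them having been tested.

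**Figure D5:**
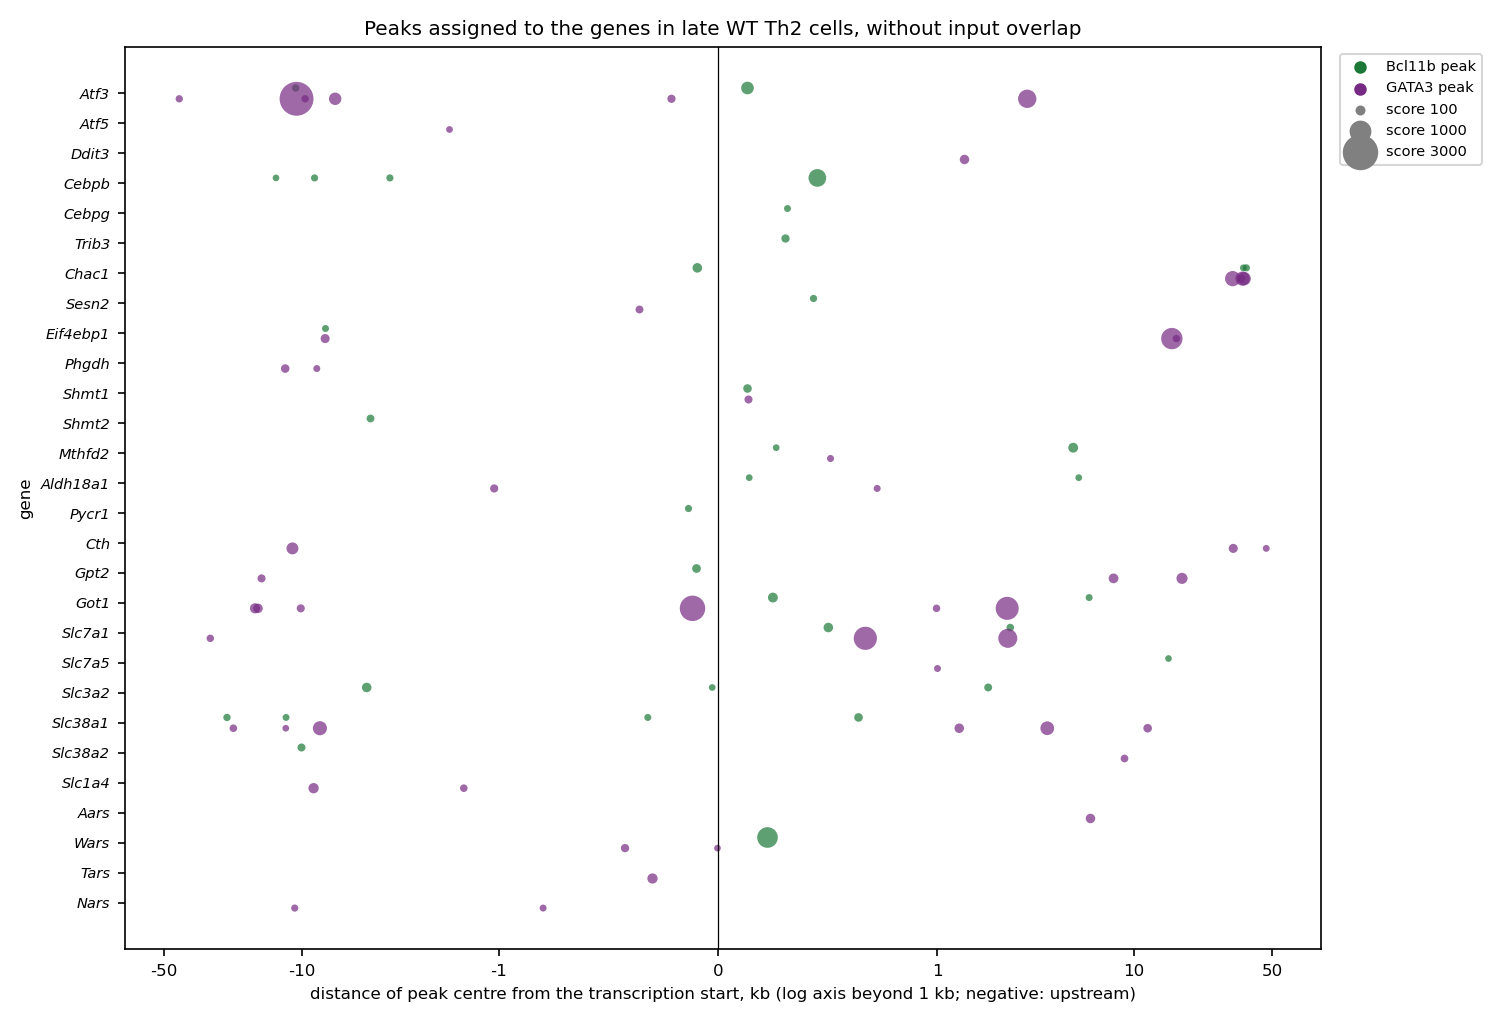
Bcl11b (green) and GATA3 (purple) peaks assigned to the genes within 50 kb of the transcription start, without those that overlap input; the horizontal axis is the distance of the peak centre in kb (linear to 1 kb, log beyond, negative is upstream) and point area follows the authors' score. Atf3 at -10.62 kb and Got1 at -0.12 kb carry the large GATA3 points, and 12 of the 40 genes have no peak and are not drawn.

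Genes of neighbouring pathways were counted beside the 40. In early Gata3 KO, 6 of 10 other amino acid transporters and 6 of 18 other amino acid enzymes tested fell and none rose, against 16.8% and 14.0% of all genes tested. Slc7a8, a neutral amino acid transporter, was at 50.2 ± 12.5 CPM in early WT and 0.331 ± 0.144 in early KO (SD, n = 2; log2 fold change -7.17, adjusted p = 5.77e-07 by edgeR), and at 57.1 ± 8.14 and 1.04 ± 0.185 in late WT and KO (-5.81, adjusted p = 5.77e-06 by edgeR). Glul, the glutamine synthetase, fell by 1.93 early and 1.22 late, and Arg1, the arginase of the cytosol, by 5.48 and 2.27. In late KO 3 of 10 transporters and 3 of 18 enzymes fell, and 1 of each rose, against 5.59% and 8.44% of all genes. No cytosolic tRNA synthetase of the 10 outside the 40 was called in early or late Gata3 KO, nor in late Bcl11b KO, with medians of 0.03, -0.17 and -0.35. In early Bcl11b KO 2 of these 10 rose, Kars (0.82) and Hars (0.75), and 1 fell, Dars (-1.10), against 11.0% and 10.1% of all genes.

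Of 10 eIF2alpha kinases and regulators 2 rose and 1 fell in early Gata3 KO, near the 30.7% called over all genes: Eif2ak3, the kinase PERK, was at 32.9 ± 0.652 CPM in WT and 80.8 ± 2.97 in KO (SD, n = 2; log2 fold change 1.30, adjusted p = 3.52e-05 by edgeR), Eif2ak2, the kinase PKR, rose by 1.05, and Ppp1r15a, which guides eIF2alpha dephosphorylation, fell by 0.77. None of the 10 was called in late Gata3 KO or late Bcl11b KO. In early Bcl11b KO 2 of the 10 rose, Eif2ak2 (1.86) and Eif2s1 (0.97), and 1 fell, Nck1 (-1.43), against 11.0% and 10.1% of all genes. Of 10 other ATF4 targets tested in the same comparison 1 rose and 4 fell. Among the latter were Stc2, Lonp1 and Ero1l (-2.30, -1.91 and -1.65), and the list median was -0.82. The list went otherwise in late Gata3 KO, where 3 of 10 tested rose and none fell (8.44% and 5.59% of all genes). Its median there was -0.23. In early Gata3 KO 1 of 10 rose and 2 fell (14.0% and 16.8% of all genes), and in late Bcl11b KO none was called. Unfolded protein response genes of the XBP1 and ATF6 branches gave 1 rise and 4 falls of 16 in late Gata3 KO (8.44% and 5.59% of all genes), with a median of -0.44. In early Bcl11b KO 5 of the 16 rose and 1 fell (11.0% and 10.1% of all genes), with a median of 0.26. In late against early Bcl11b cultures 8 rose in WT and 7 in KO (19.7% and 17.0% of all genes), and none fell. In late against early Gata3 KO 5 fell (10.3% of all genes) and none rose. Slc7a2, an arginine transporter, rose by 2.40 in late Bcl11b KO, where it was the only call among 12 other transporters tested.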

How the data were processed

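RNA libraries (2 in each of 8 groups) and 3 binding libraries of mouse Th2 cells were used. Per the file headers and values, the authors deposited read counts and RPKM per RefSeq transcript, 1 library a file. The peak files of the authors give a score (-10 log10 p), a fold enrichment ratio, a false discovery rate in percent and the closest start. Per the submitters' processing notes, the genome build was mm10 and the tools were MACS 1.4.2, TopHat2 2.0.13, Novoalign, Bowtie and CASAVA 2.18. Their roles, the read counter, strand, multi-mapping and the peak control: not given in the sources used here; reads of synthetase or transporter copies, pseudogenes and antisense genes may therefore be mixed.

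Counts of the transcript with most reads per symbol were tested with edgeR 4.0.16 quasi-likelihood (TMM, R 4.3.3), 1 fit of 4 groups per experiment without a replicate block, for genes with 1 RPKM or more in 2 or more of the 8 libraries. P-values were adjusted by Benjamini-Hochberg over every gene in the fit, and calls had an adjusted p under 0.05. The filter kept 10873 and 10601 genes. A sequencing depth of 4687552 to 14577958 gene reads limits the precision of low genes. Alternatives used DESeq2 1.42.0, RLE scaling, limma 3.58.1 on log2(RPKM + 1), no filter, other sets of libraries, summed transcripts, subtraction of the receptor read rate and a replicate block. The scripts (Python 3.11.15) were tested on simulated data. Gene members, pathway and marker lists were chosen with earlier results of these data known. Values per library are given for Atf4, Asns, Phgdh, Psat1, Slc7a11, Ddit3, Trib3, Chac1 and genes called in a KO comparison or stage difference (at most 12 of smallest p in each), and up to 3 called genes per pathway list. Promoter sequences are from RefSeq GRCm38.p6. Some promoter matches are not reported here.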

Additional observations from a re-analysis of the deposited data

Results flagged for a closer look

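For 5 genes the effect of Gata3 KO differed between early and late cultures, by the test of the difference itself (edgeR with Benjamini-Hochberg adjustment). The difference, late minus early on the log2 scale, was 2.15 for Atf3, 1.94 for Gpt2, 0.79 for Got1, -0.56 for Slc38a2 and -0.72 for Mthfd2. No gene of the 40 was called between late and early WT of this experiment, by edgeR or by DESeq2 (1 at an unadjusted p under 0.05), but same-numbered early and late WT libraries were closer to each other than replicates were, and the labels do not say whether they share a culture.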

How the results depend on the processing

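In the Bcl11b experiment early KO gave 11 calls, against 22 with limma on log2(RPKM + 1), 17 with all 16 libraries in 1 fit, 4 with only the 4 libraries compared and 7 to 11 with 1 library left out. Late KO gave 2, against 6 with DESeq2, 1 without a filter, 7 with 16 libraries, 15 with 4, 1 with the receptor rate subtracted, 4 without both early WT libraries and 0 to 4 with 1 left out. Late against early gave 17 in WT (28 with limma, 8 to 20 with 1 left out) and 20 in KO (11 to 20). The stage difference gave 0, against 3 with DESeq2, 1 without a filter, 24 with limma, 5 with 16 libraries and 0 to 2 with 1 left out. In the Gata3 experiment early KO gave 6, against 10 without a filter, 3 with 16 libraries and 2 to 6 with 1 left out. Late KO gave 11, against 21, 7 and 4 to 12 in that order, late against early KO 18, against 28, 11 and 7 to 19, the stage difference 5, against 15, 2 and 2 to 9, and late against early WT 0 in all. Bcl11b peaks at a score of at least 100 were assigned to 13 genes in place of 20. The cause was not tested.

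Of 1547 values of single genes under alternatives, 1289 kept direction and call, 245 lost the call and 13 turned, all with limma on RPKM. In early Bcl11b KO these were Ddit3 0.13, Asns 0.41, Slc7a5 0.0041, Got1 0.40, Sars 0.19 and Mars 0.50. In late against early Bcl11b WT they were Atf4 0.57, Atf5 0.041, Asns 0.21, Gars 0.89, Iars 0.82, Mars 0.31 and Yars 0.64.

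The labels number libraries 1 and 2 without saying what a number shares. Deviations of same-numbered libraries correlated at -0.0799 to 0.344 in the Bcl11b and 0.173 to 0.605 in the Gata3 experiment. With a replicate block the calls were 9 in early and 1 in late Bcl11b KO, and 13 in early Gata3 KO, 21 in late Gata3 KO, 27 in late against early Gata3 KO and 16 in the Gata3 stage difference. Groups of 2 libraries limit every call, and low depth limits some: 17 reads for Cth in early Gata3 KO, 12 for Trib3 in late Bcl11b KO and 48 for Chac1 in late Gata3 KO.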
